A study of Mus musculus with 2 samples.

Results

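The 10 genes described here encode enzymes that modify procollagen in the endoplasmic reticulum or process it outside the cell, and partner proteins of those enzymes: the prolyl 4-hydroxylase subunits P4ha1 and P4ha2, the partners of prolyl 3-hydroxylation and lysyl hydroxylation Crtap and P3h4, the lysyl hydroxylases Plod1, Plod2 and Plod3, the procollagen C-proteinase Bmp1 and its enhancers Pcolce and Pcolce2. They were chosen by symbol, and all 10 were found among the 27998 genes counted in both libraries. Their mRNA was measured by single-cell RNA sequencing of limb tendon cells from pups at P7, in 1 wild-type library and 1 Tgfbr2;ScxCre mutant library, each made from cells pooled from 2 pups. In the mutants (Tgfbr2 f/-;ScxCre), the floxed allele of the TGFβ type II receptor was deleted by a Cre driven by regulatory sequence of the tendon transcription factor gene Scx, so that it was lost from cells with a history of Scx expression, which include some cells outside tendon, and the other allele was null in every cell. Both genotypes had 2 fluorescent transgenes besides, a GFP driven by Scx sequence (ScxGFP) and a tdTomato at Rosa26 that Cre switches on (Ai14). The control sample is titled wild-type but is also described as heterozygous in its labels, and it is called wild-type below.

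Collagen chains are hydroxylated on proline and lysine as they enter the endoplasmic reticulum. Prolyl 4-hydroxylation lets the triple helix hold together at body temperature, lysyl hydroxylation prepares the sites of glycosylation and cross-linking, and the C-terminal propeptide is cut off by BMP1-type proteinases after secretion so that fibrils can form. Tendon cells deposit large amounts of type I collagen, and loss of function of several of these genes in humans causes brittle bone or connective tissue disease.

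Cells were divided by their counts of unique molecular identifiers (UMIs), each of which marks 1 captured mRNA molecule. Scx-high cells had at least 30 Scx UMIs per 10000, Scx-low fibroblasts had fewer and at least 5 UMIs over Ly6a, Cd34, Dpt, Lum and Col3a1, and the rest were other cells. The wild-type library held 1178 Scx-high cells, 828 Scx-low fibroblasts and 358 other cells, with 4915227, 3332302 and 1204077 UMIs. The mutant library held 235, 1910 and 447 cells, with 1082977, 6047602 and 1119669 UMIs. According to notes of the study, counts of Scx in these libraries also hold ScxGFP transcripts, so the classes follow Scx and its reporter together. Summed UMIs of a class are given per 1000000 UMIs of that class (CPM). A UMI counts the 3′ end of a molecule, so levels are not divided by gene length. Intervals are exact 95% intervals that cover counting error only: with 1 library per genotype there is no spread between replicates, no test was run, and genotype and library cannot be told apart. Fewer cells of a type and less RNA per cell cannot be told apart for the whole libraries either. Tgfbr2 itself was counted at 30.9 CPM in wild-type and 45.2 CPM in mutant Scx-high cells, but a 3′ count does not check the floxed exon.

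The study describes the cells with ScxGFP signal in mutant tendons of this age as newly recruited, and whether the mutant Scx-high cells here are such cells was not tested. The Scx-high classes of the libraries were also unlike in their other markers. Of the Scx-high cells, 191 of 1178 in the wild-type library and 182 of 235 in the mutant library also met the criterion of 5 fibroblast UMIs. The 5 fibroblast genes summed to 704 CPM in wild-type and 5544 CPM in mutant Scx-high cells, the 6 markers of pericytes and smooth muscle to 471 and 2008 CPM, and the 4 muscle markers to 3.46 and 399 CPM, with Myod1 and Pax7 at 0 in the wild-type class. In Scx-low fibroblasts, the pericyte and smooth muscle markers summed to 6777 CPM in wild-type and 941 CPM in mutant cells. Scx-low fibroblasts made up 35.0% of wild-type and 73.7% of mutant cells. The study lists the 5 genes that define them as higher in its mutant cell cluster, which it takes to be dedifferentiated tenocytes. It found the proteins of Ly6a and Cd34 in wild-type epitenon, the cell layer around the tendon. For these libraries the study left out the scraping step that removes such cells. Whether the Scx-low fibroblasts of the libraries are the same kind of cell was not tested. The 6 tendon markers, Scx, Tnmd, Fmod, Mkx, Thbs4 and Col1a1, summed to 112578 CPM in wild-type and 58124 CPM in mutant Scx-high cells. Scx also defines the class, and most of the difference between these sums was Col1a1, whose levels are given below. Values without cells bearing the fibroblast, immune, endothelial, pericyte or muscle markers are given beside the results they affected most. The separations by fibroblast genes and by muscle markers were made after the data had been seen.

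In wild-type Scx-high cells, Pcolce, P4ha1, Crtap, Pcolce2 and P3h4 were the most abundant of the 10 mRNAs and P4ha2 was the least abundant. In mutant Scx-high cells, P4ha1, Pcolce2, Crtap, Bmp1 and Pcolce were at least 2-fold lower than in wild-type Scx-high cells and Plod2 and P4ha2 at least 2-fold higher, so that 5 of 10 genes were lower and 2 of 10 higher by that rule of size. Among the 5466 genes with at least 20 CPM in either class, 4.5% were at least 2-fold lower and 13.9% at least 2-fold higher. On the log2 scale the members' median was -0.75 and that of all those genes 0.36, and taken relative to that shift the same counts of 5 lower and 2 higher were obtained. The study lists P4ha1, Pcolce2, Crtap and P3h4 as lower in its mutant cell cluster, which lacks tendon markers, than in wild-type tenocytes. Those groups differ from the Scx-high classes compared here, but they come from the same libraries, so the lower P4ha1, Pcolce2 and Crtap are not independent evidence. P3h4 had no such direction between the Scx-high classes. Restricted to Scx-high cells with under 5 fibroblast UMIs, 987 wild-type and 53 mutant cells, 8 of 10 genes were at least 2-fold lower and 1 was higher, beside 10% and 31.4% of 5628 genes. A Col1a1 UMI was present in 77.4% and a Tnmd UMI in 64.2% of these 53 mutant cells, compared with 100% and 99.8% of the 987 wild-type cells. In that subset Plod2 was the gene past 2-fold higher, and P3h4, Plod1 and Plod3 were past 2-fold lower in addition to the 5 genes named.

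**Figure D1:**
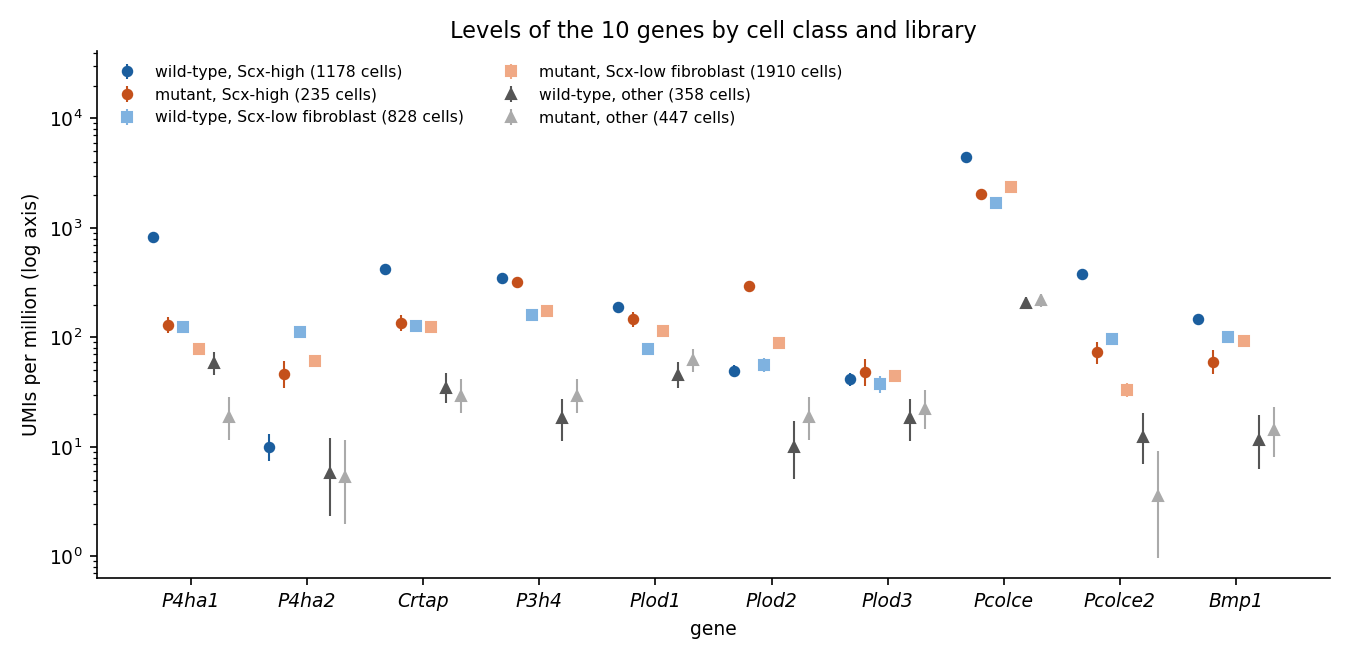
UMIs per 1000000 (log axis) of the 10 genes in Scx-high cells, Scx-low fibroblasts and other cells of each library; bars are exact 95% Poisson intervals of the summed counts, drawn where wider than the marker. P4ha1, Crtap and Pcolce2 stand highest in wild-type Scx-high cells, P4ha2 stands lowest there among the Scx-high and fibroblast classes, and Plod2 stands highest in mutant Scx-high cells.

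P4ha1 and P4ha2 encode alternative catalytic subunits of collagen prolyl 4-hydroxylase, each of which pairs with the disulfide isomerase P4hb. P4ha1 (chr10:59323296-59373304, plus strand, GRCm38) was at 829 CPM in wild-type Scx-high cells, 123 CPM in wild-type Scx-low fibroblasts, 130 CPM in mutant Scx-high cells and 77.9 CPM in mutant Scx-low fibroblasts. The wild-type Scx-high class thus stood apart from the other classes, and the mutant Scx-high class was close to the wild-type fibroblasts. The mutant Scx-high level was 6.37-fold lower than the wild-type one (95% interval 5.38 to 7.58). Over the alternative settings it lay between 6.17-fold and 9.75-fold lower. Among Scx-high cells with at least 5 fibroblast UMIs, taken apart, it was 4.90-fold lower, a ratio of 0.204 (0.167 to 0.247). In Scx-low fibroblasts the mutant level was 1.58-fold lower (1.38 to 1.81), short of the 2-fold rule. Immune cells also held P4ha1, at 45.4 CPM (wild-type) and 23.8 CPM (mutant) on 21 and 8 UMIs, and Col1a1, at 1159 and 166 CPM. How much of the fibroblast counts, by CPM or per Col1a1 UMI, was carried over from other cells was not tested. In other cells P4ha1 was at 58.1 CPM (wild-type) and 18.8 CPM (mutant), on 70 and 21 UMIs. Of these UMIs, 25 and 7 came from 33 and 95 cells that were neither haemoglobin-rich nor marked as immune, endothelial or pericyte. Col1a1 was at 30669 CPM in those wild-type cells and 3927 CPM in those mutant cells, so the make-up of this class differed between the libraries.

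P4ha2 (chr11:54100095-54131665, plus strand) showed the opposite distribution. It was at 9.97 CPM in wild-type Scx-high cells, on 49 UMIs, against 111 CPM in wild-type Scx-low fibroblasts, 46.2 CPM in mutant Scx-high cells and 60.7 CPM in mutant Scx-low fibroblasts. Within the wild-type library it was 11.2-fold lower in Scx-high cells than in Scx-low fibroblasts (8.27 to 15.4). The mutant to wild-type ratio was 4.63 in Scx-high cells (3.06 to 7.01) and 0.545 in Scx-low fibroblasts (0.471 to 0.631). The higher level in mutant Scx-high cells went with the fibroblast genes: the 182 mutant Scx-high cells with at least 5 fibroblast UMIs held 49 P4ha2 UMIs (52.9 CPM) and the 53 without held 1 (6.35 CPM, 0.161 to 35.4). Among Scx-high cells with under 5 fibroblast UMIs the ratio was 1.09 with an interval of 0.0266 to 6.74, and among those with at least 5 it was 1.94 (1.18 to 3.24). The 53 cells were also shallower, with a median of 2718 UMIs beside 4882 in the 182. In whole libraries, which ignore the classes, P4ha2 was at 45.2 CPM (wild-type) and 51.3 CPM (mutant).

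The composition of the prolyl 4-hydroxylase pair therefore differed between classes. P4ha3, the remaining subunit described below, was not counted in this pair. In mutant Scx-high cells it was more abundant than P4ha1 or P4ha2. P4ha2 made up 1.19% of P4ha1 and P4ha2 UMIs in wild-type Scx-high cells (0.880 to 1.57) and 47.4% in wild-type Scx-low fibroblasts (43.9 to 51.0). In the mutant library it made up 26.2% in Scx-high cells (20.1 to 33.0) and 43.8% in Scx-low fibroblasts (40.4 to 47.2). Without the Scx-high cells that carry fibroblast genes, the Scx-high shares were 0.665% (wild-type) and 6.67% (mutant), the latter on 15 UMIs.

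**Figure D2:**
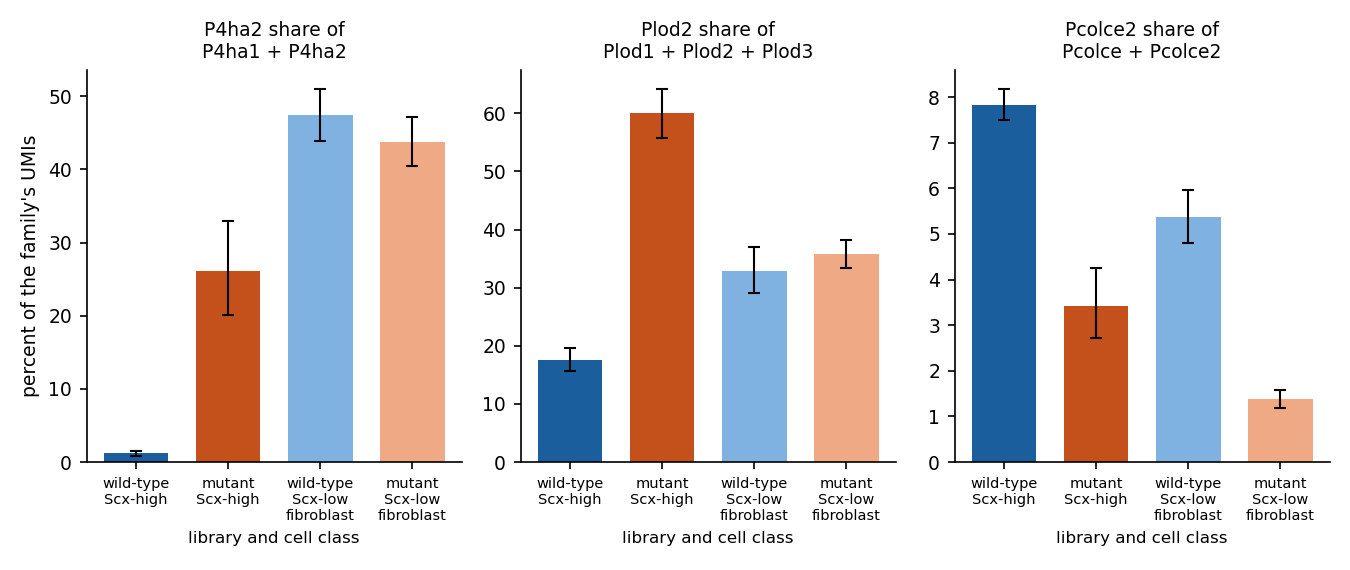
Percent of UMIs that came from P4ha2 (of P4ha1 and P4ha2), Plod2 (of Plod1, Plod2 and Plod3) and Pcolce2 (of Pcolce and Pcolce2). Values are for the Scx-high and Scx-low fibroblast classes of each library, and P4ha3 was not counted. Error bars are exact 95% binomial intervals. P4ha2 makes up 1.19% of its pair in wild-type Scx-high cells and 47.4% in wild-type fibroblasts, and Plod2 has its highest share, 60%, in mutant Scx-high cells.

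The sequences around the RefSeq starts of the pair, from 250 bases before to 50 after, are shown because the levels of the pair went opposite ways between classes. They were searched for the core of the hypoxia response element, ACGTG, on both strands. Capitals mark the core, as ACGTG or CACGT.
P4ha1 (chr10:59323046-59323345, plus strand): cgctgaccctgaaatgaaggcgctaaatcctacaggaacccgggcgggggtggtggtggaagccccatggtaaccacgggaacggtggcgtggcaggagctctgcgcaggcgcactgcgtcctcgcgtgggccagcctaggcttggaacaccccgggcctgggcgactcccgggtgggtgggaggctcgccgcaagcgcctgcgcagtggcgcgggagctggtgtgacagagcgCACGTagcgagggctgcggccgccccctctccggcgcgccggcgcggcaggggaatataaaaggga
P4ha2 (chr11:54100674-54100973, plus strand): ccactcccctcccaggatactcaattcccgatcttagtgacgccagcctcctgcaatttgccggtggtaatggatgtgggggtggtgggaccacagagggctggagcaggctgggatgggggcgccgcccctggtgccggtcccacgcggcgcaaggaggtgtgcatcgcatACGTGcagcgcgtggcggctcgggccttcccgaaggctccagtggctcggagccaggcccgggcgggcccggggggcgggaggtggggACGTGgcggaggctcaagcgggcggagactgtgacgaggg
The windows were also searched for the Smad binding element CAGAC, the Scleraxis-type E-box CATCTG and the CCAAT box, on both strands, and neither held a match. Those motifs stood in 49.5%, 17.1% and 37.4% of promoters. For ACGTG, the P4ha1 window held 1 match, at position -16 from the start, and the P4ha2 window held 2. Of the 7 members with a RefSeq promoter in the table used (GRCm38.p6), Plod3 also held a match, and Crtap, Plod1, Pcolce and Pcolce2 held none, beside 19.7% of 32544 promoters of the same length. P4ha1 lies with its RefSeq start at the GENCODE gene start, while the P4ha2 window lies inside the GENCODE gene. Of 10 genes known to respond to hypoxia, 6 reached 20 CPM in the Scx-high classes. In mutant Scx-high cells 1 of them was lower and 5 were higher (median log2 ratio 0.098, beside 0.36 for all genes). The lower one, Car9, a carbonic anhydrase, was the single one past 2-fold, at 280 CPM in wild-type and 14.8 CPM in mutant cells. Among all genes compared, 4.5% were at least 2-fold lower and 13.9% at least 2-fold higher.

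The lysyl hydroxylases differ in where they act: PLOD1 hydroxylates the helical part of collagen, PLOD2 the telopeptides that form the stable type of cross-link, and PLOD3 also transfers sugars. Plod2 (chr9:92542223-92608428, plus strand) was at 49.6 CPM in wild-type Scx-high cells, 56.4 CPM in wild-type Scx-low fibroblasts, 294 CPM in mutant Scx-high cells and 88.6 CPM in mutant Scx-low fibroblasts. The mutant Scx-high class stood above the other 3 classes, on 318 UMIs. Its level was 5.92-fold that of wild-type Scx-high cells (4.99 to 7.02) and 3.31-fold that of mutant Scx-low fibroblasts (2.87 to 3.81). In Scx-low fibroblasts the mutant to wild-type ratio was 1.57 (1.33 to 1.87), and 1.25 without cells carrying immune, endothelial or pericyte markers. In other cells it was at 9.97 and 18.8 CPM, on 12 and 21 UMIs.

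The higher Plod2 level was found in mutant Scx-high cells with and without fibroblast genes, at 320 CPM (284 to 358) and 140 CPM (87.5 to 211), beside 85.2 and 41.1 CPM in the corresponding wild-type cells. The ratios were 3.75 (2.93 to 4.86) and 3.40 (2.07 to 5.32), both under the ratio of the whole class. With cells carrying immune, endothelial or pericyte markers left out, 1107 wild-type and 143 mutant Scx-high cells, the ratio was 4.07, and without cells holding a muscle marker UMI it was 6.15. Over every alternative setting run it lay between 3.40 and 6.84. Against the mutant Scx-low fibroblasts, the ratio was 1.58 once the Scx-high cells with fibroblast genes were left out.

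Plod1 (chr4:147909753-147936767, minus strand) was at 192 CPM in wild-type Scx-high cells and 148 CPM in mutant Scx-high cells, a ratio of 0.771 (0.648 to 0.912), and at 77.7 and 115 CPM in Scx-low fibroblasts, a ratio of 1.48 (1.28 to 1.71). Plod1 was thus somewhat lower in the mutant library in one class and higher in the other, neither past 2-fold. Among Scx-high cells with under 5 fibroblast UMIs its ratio was 0.425 (0.225 to 0.732), on 13 mutant UMIs. Plod3 (chr5:136987019-136996648, plus strand) was the flattest of the 3, at 41.7, 37.2, 48.0 and 44.3 CPM in the wild-type Scx-high, wild-type fibroblast, mutant Scx-high and mutant fibroblast classes. Its ratios had intervals that held 1 in all 4 of these comparisons. In the 53 mutant Scx-high cells with under 5 fibroblast UMIs, Plod3 had 3 UMIs and a ratio of 0.466 (0.0951 to 1.39).

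Plod1 was the largest part of lysyl hydroxylase UMIs in wild-type Scx-high cells, at 67.7%, with Plod2 at 17.5% (15.6 to 19.6) and Plod3 at 14.7%. In mutant Scx-high cells Plod2 was the largest part at 60% (55.7 to 64.2) and Plod1 made up 30.2%. In Scx-low fibroblasts the order was the same in both libraries, with Plod1 at 45.4% and 46.4% and Plod2 at 32.9% and 35.8%. The Plod2 share in mutant Scx-high cells was 57.9% without the cells carrying fibroblast genes and 48.1% without those carrying immune, endothelial or pericyte markers.

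CRTAP is the helper protein of the prolyl 3-hydroxylase complex with P3H1 and cyclophilin B, and P3H4 is a related protein without enzyme activity that works with P3H3 and lysyl hydroxylase 1. Crtap (chr9:114375134-114390675, minus strand) was at 420 CPM in wild-type Scx-high cells, 127 CPM in wild-type Scx-low fibroblasts, 137 CPM in mutant Scx-high cells and 125 CPM in mutant Scx-low fibroblasts. The wild-type Scx-high class was high and the other 3 classes lay at nearly the same level. The mutant Scx-high level was 3.07-fold lower than the wild-type one (2.60 to 3.66), and the ratio in Scx-low fibroblasts was 0.982 (0.871 to 1.11). The ratio was 0.342 among Scx-high cells with under 5 fibroblast UMIs and 0.427 among those with more. A transcript of the other strand, 4930520O04Rik, overlaps the 3′ end of Crtap in the annotation and has no count of its own in these data.

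P3h4 (chr11:100408456-100414836, minus strand) behaved otherwise. It was at 347 CPM in wild-type and 323 CPM in mutant Scx-high cells, with a ratio of 0.932 and an interval of 0.828 to 1.05, and at 161 and 173 CPM in the Scx-low fibroblasts, with a ratio of 1.07 (0.967 to 1.19). It was therefore higher in Scx-high cells than in fibroblasts in both libraries, 2.15-fold (1.95 to 2.38) in wild-type and 1.87-fold (1.65 to 2.11) in mutant cells. The level in mutant Scx-high cells depended on which cells were taken: it was 357 CPM in the 182 cells with fibroblast genes and 127 CPM, on 20 UMIs, in the 53 without, so that the ratio to wild-type was 1.13 (0.963 to 1.33) in the former and 0.358 (0.218 to 0.555) in the latter. Without the cells carrying fibroblast genes, P3h4 in mutant Scx-high cells was below the mutant fibroblast level, at a ratio of 0.733. Crtap made up 54.8% of Crtap and P3h4 UMIs in wild-type and 29.7% in mutant Scx-high cells, beside 44.1% and 41.9% in Scx-low fibroblasts.

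The procollagen C-proteinase BMP1 removes the C-propeptide, and PCOLCE and PCOLCE2 are secreted glycoproteins that bind procollagen and speed the cut. Pcolce (chr5:137605103-137613784, minus strand) was the most abundant of the 10 mRNAs in each class, at 4479 CPM in wild-type Scx-high cells, 1706 CPM in wild-type Scx-low fibroblasts, 2054 CPM in mutant Scx-high cells and 2390 CPM in mutant Scx-low fibroblasts. The mutant to wild-type ratio was 0.459 in Scx-high cells (0.439 to 0.479) and 1.40 in Scx-low fibroblasts (1.36 to 1.44). Leaving out cells with immune, endothelial or pericyte markers put the Scx-high ratio at 0.536, inside the 2-fold limit, and taking the Scx-high cells with at least 5 fibroblast UMIs put it at 0.594. Among Scx-high cells with under 5 fibroblast UMIs it was 0.300 (0.261 to 0.342). The ratio in Scx-low fibroblasts was 1.31 without the marker-bearing cells. Pcolce was 2.63-fold higher in Scx-high cells than in fibroblasts of the wild-type library and at a ratio of 0.859 (0.821 to 0.899) in the mutant library, or 0.587 without the Scx-high cells carrying fibroblast genes. It overlaps Fbxo24 on the same strand over 1282 bases that do not include its 3′ end.

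Pcolce2 (chr9:95637601-95698096, plus strand) was lower in the mutant library in both classes. It was at 380 CPM in wild-type and 72.9 CPM in mutant Scx-high cells, 5.22-fold lower (4.16 to 6.62), and at 96.6 and 33.2 CPM in Scx-low fibroblasts, 2.91-fold lower (2.43 to 3.49). Over the alternative settings, the difference was 3.70-fold to 6.68-fold in Scx-high cells and 2.79-fold to 3.34-fold in Scx-low fibroblasts. Among Scx-high cells with at least 5 fibroblast UMIs, taken apart, Pcolce2 was 3.11-fold lower, a ratio of 0.321 (0.237 to 0.430). In other cells it had 15 wild-type and 4 mutant UMIs. Pcolce2 was also higher in Scx-high cells than in Scx-low fibroblasts in both libraries, 3.94-fold (3.50 to 4.45) in wild-type and 2.19-fold (1.67 to 2.86) in mutant cells, the latter 3.44-fold without the Scx-high cells carrying fibroblast genes. The share of Pcolce2 in the enhancer pair was 7.83% and 5.36% in wild-type Scx-high cells and fibroblasts, and 3.43% and 1.37% in those of the mutant library. Without the Scx-high cells carrying fibroblast genes, the mutant Scx-high share was 7.53% on 18 Pcolce2 UMIs.

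Bmp1 (chr14:70474558-70520234, minus strand) was at 147 CPM in wild-type Scx-high cells, 102 CPM in wild-type Scx-low fibroblasts, 60.02 CPM in mutant Scx-high cells and 92.9 CPM in mutant Scx-low fibroblasts. The mutant Scx-high class was the lowest of these. The mutant level was 2.46-fold lower in Scx-high cells (1.91 to 3.22), and the ratio was 0.913 in Scx-low fibroblasts (0.797 to 1.05). Bmp1 was 1.45-fold higher in Scx-high cells than in fibroblasts of the wild-type library, while in the mutant library the ratio was 0.646 (0.492 to 0.836).

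Set side by side, the comparisons between libraries put 7 of 10 genes past 2-fold in Scx-high cells and 1 of 10 in Scx-low fibroblasts, a contrast that was not tested. The Scx-low fibroblasts of the libraries may not be the same kind of cell, as described above. The 7 were 5 lower and 2 higher, beside 4.5% and 13.9% of 5466 genes, so the background in Scx-high cells was also larger for higher genes. In Scx-low fibroblasts, Pcolce2 was the 1 gene of 10 at least 2-fold lower in the mutant library and none was 2-fold higher, beside 5.51% and 3.32% of 5940 genes, and on the log2 scale their median was 0.04, beside -0.02 for all genes. Without cells carrying immune, endothelial or pericyte markers P4ha2 also passed, 2.04-fold lower. Between the classes of the wild-type library, 6 of 10 genes were at least 2-fold higher in Scx-high cells and P4ha2 was at least 2-fold lower, beside 4.72% and 20.6% of 5824 genes. Their median log2 ratio was 1.204, beside -0.47 for all genes, and relative to that shift 7 were higher. Between the classes of the mutant library, Plod2 and Pcolce2 were at least 2-fold higher in Scx-high cells, beside 5.75% of 5892 genes, and none was 2-fold lower, beside 8.81%. With the Scx-high cells that carry fibroblast genes left out, that last comparison gave 1 gene higher, Pcolce2, and 2 lower, P4ha2 and Plod3, beside 13.2% and 15.2% of 6157 genes. The 2 lower genes had 1 and 3 UMIs in the 53 cells.

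**Figure D3:**
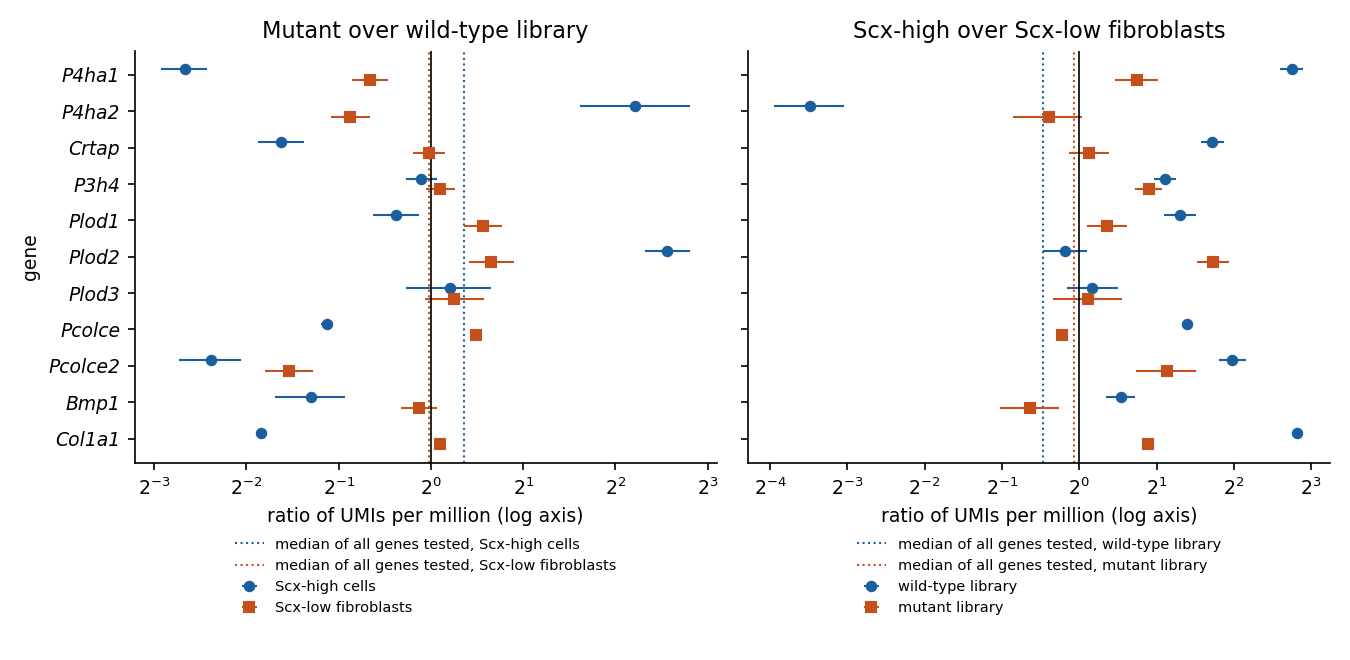
Ratios of CPM (log axis, base 2) of the 10 genes and Col1a1, mutant over wild-type in each class (left) and Scx-high over Scx-low fibroblasts in each library (right); bars are exact conditional 95% intervals, dotted lines the median of all genes tested. On the left, P4ha1 (0.157) and Plod2 (5.92) lie farthest apart in Scx-high cells. In Scx-low fibroblasts all ratios but that of Pcolce2 lie within 2-fold of 1, those of P4ha1, P4ha2, Plod1, Plod2 and Pcolce with intervals away from 1.

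The abundance of these mRNAs was next set against that of their main substrate. Col1a1, the α1 chain of type I collagen, was at 73183 CPM in wild-type Scx-high cells, 10381 CPM in wild-type Scx-low fibroblasts, 20467 CPM in mutant Scx-high cells and 11092 CPM in mutant Scx-low fibroblasts. Per 1000 Col1a1 UMIs, wild-type Scx-high cells held 11.3 UMIs of P4ha1, 5.74 of Crtap, 5.20 of Pcolce2, 4.74 of P3h4, 0.678 of Plod2 and 0.136 of P4ha2. For P4ha1 this was close to the 11.9 of wild-type Scx-low fibroblasts, a ratio of 0.953 (0.861 to 1.06), although their Col1a1 levels differed 7.05-fold. The other 9 genes had fewer UMIs per Col1a1 UMI in wild-type Scx-high cells than in fibroblasts, from 0.559 for Pcolce2 to 0.0127 for P4ha2. On this scale 8 of 10 genes were at least 2-fold lower and none 2-fold higher, beside 97.8% and 0.55% of 5823 genes. P4ha1 and Pcolce2 were the 2 of 10 that lay within 2-fold.

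In mutant Scx-high cells, with Col1a1 at 0.280 of the wild-type level (0.276 to 0.284), the same genes read differently per Col1a1 UMI. Plod2 stood at 14.3 UMIs per 1000 Col1a1 UMIs, 21.2-fold the wild-type value, P4ha2 at 2.26, P3h4 at 15.8, Plod1 at 7.22 and Plod3 at 2.35, all 5 at least 2-fold above wild-type Scx-high cells. Against this scale 94.1% of 5465 genes were at least 2-fold higher, so the share of the 10 genes was under the background. None of the 10 was 2-fold lower, beside 0.549% of those genes. P4ha1 and Pcolce2 were the genes that were lower even per Col1a1 UMI, at ratios of 0.562 (0.475 to 0.665) and 0.686 (0.547 to 0.859). Crtap at 1.16 (0.984 to 1.38), Bmp1 at 1.46 (1.13 to 1.88) and Pcolce at 1.64 (1.57 to 1.72) lay between. Without the Scx-high cells carrying fibroblast genes, Pcolce2 was at 1.29 and P4ha1 at 0.490. P4ha1 was thus past 2-fold lower there, and also at 0.482 with cells carrying immune, endothelial or pericyte markers left out. In Scx-low fibroblasts Col1a1 had a ratio of 1.07 (1.05 to 1.08), and Pcolce2 was the 1 gene past 2-fold per Col1a1 UMI, 3.11-fold lower, beside 6.33% of 5939 genes 2-fold lower and 2.96% 2-fold higher. P4ha2 lay next to the limit at a ratio of 0.510.

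**Figure D4:**
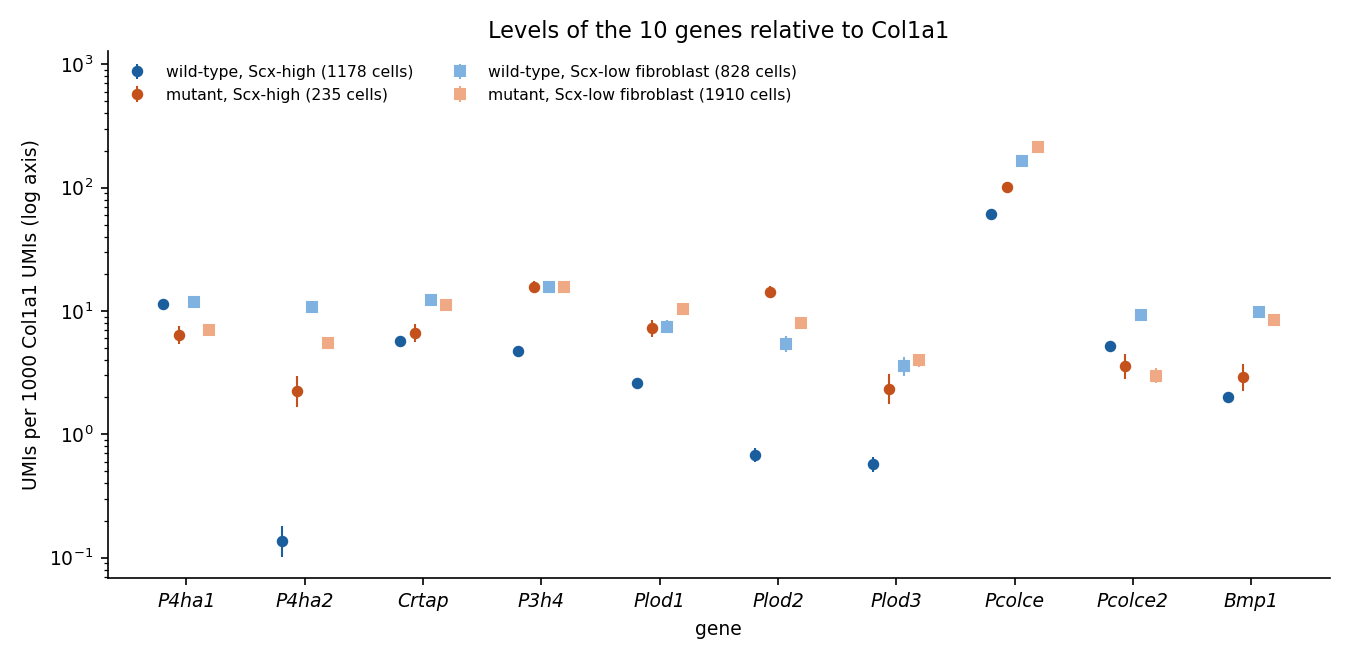
UMIs of the 10 genes per 1000 Col1a1 UMIs (log axis) in Scx-high cells and Scx-low fibroblasts of each library; bars are 95% intervals of counting error. P4ha1 is nearly level between the 2 wild-type classes (11.3 and 11.9) and lower in both mutant classes, while Plod2 is lowest in wild-type Scx-high cells (0.678) and highest in mutant Scx-high cells (14.3).

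The levels were also followed along the Scx level of single cells, in 5 bins from under 5 to at least 300 Scx UMIs per 10000. The bins under 30 hold the Scx-low fibroblasts, which had to hold at least 5 fibroblast UMIs, and the bins from 30 up hold all Scx-high cells. In the wild-type library P4ha1 was at 105, 176, 544, 815 and 949 CPM from the lowest to the highest bin, and P4ha2 at 118, 92.3, 22.2, 11.0 and 3.98 CPM. The isoforms thus ran in opposite directions over these bins. The step across 30 also crosses the requirement for fibroblast UMIs. Changes there, such as the fall of P4ha2 and the rise of P4ha1, Crtap, Pcolce and Pcolce2, are thus not changes with Scx alone. In the mutant library P4ha1 was at 73.5, 120, 134, 112 and 143 CPM and P4ha2 at 61.6, 52.0, 44.8, 48.6 and 45.2 CPM, with overlapping intervals between the 3 highest bins of each gene. Plod2 was level in the wild-type library, between 48.1 and 57.8 CPM in all bins, and stood at 79.9, 172, 218, 252 and 404 CPM in the mutant library. The highest of these bins held 66 mutant cells. Crtap went from 122 to 455 CPM over the wild-type bins and lay between 123 and 155 CPM in the mutant bins. Pcolce2 was at 470 CPM in the highest wild-type bin and 95.6 CPM in the highest mutant bin.

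**Figure D5:**
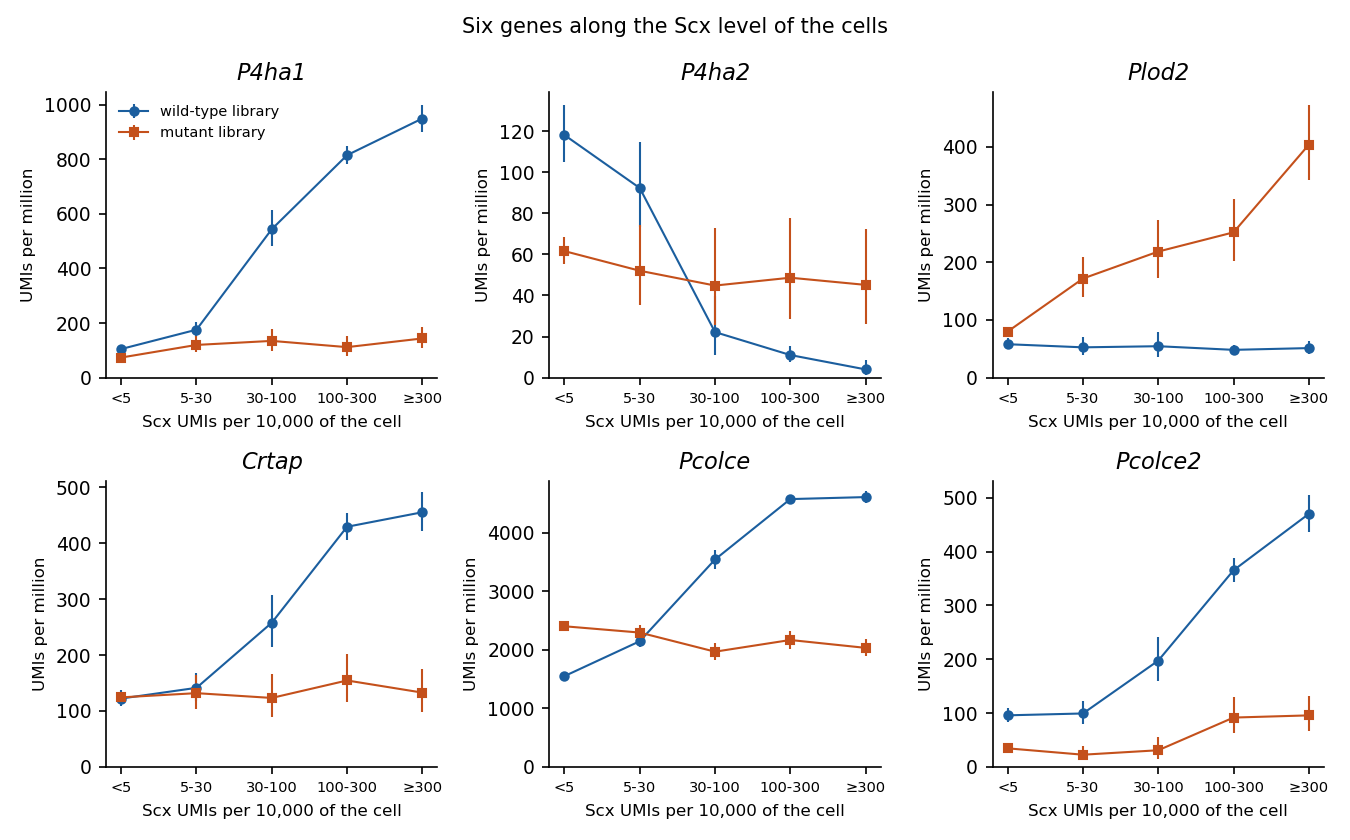
CPM of 6 genes in 5 bins of cells by Scx UMIs per 10000, for each library; bars are exact 95% Poisson intervals. Wild-type P4ha1, Crtap, Pcolce and Pcolce2 increase along Scx and wild-type P4ha2 decreases to 3.98 CPM, whereas in the mutant library Plod2 is the gene with the steepest increase, to 404 CPM.

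Scx-low fibroblasts differ in whether they hold transcripts of tenomodulin (Tnmd), a late tendon marker, and were divided at 5 Tnmd UMIs per 10000 into 205 and 623 wild-type and 652 and 1258 mutant cells. By CPM, P4ha1 was higher in the cells with Tnmd, 1.79-fold (1.44 to 2.22) among wild-type and 1.43-fold (1.19 to 1.73) among mutant cells. Pcolce was 1.86-fold and 1.56-fold higher, Plod1 1.77-fold and 1.59-fold, and Crtap 1.56-fold and 1.17-fold. Pcolce2 and Bmp1 had the opposite sign in both libraries, with Pcolce2 at 50.6 CPM in the Tnmd cells and 108 CPM in the rest of the wild-type fibroblasts and at 23.9 and 38.2 CPM in the mutant ones. Both Pcolce2 groups were lower in the mutant library. Plod2 had intervals that held 1, at 1.18 (0.816 to 1.66) and 0.981 (0.817 to 1.18). Col1a1 was 2.52-fold higher in the wild-type and 1.91-fold higher in the mutant Tnmd cells. Per 1000 Col1a1 UMIs, P4ha1 was therefore lower in Tnmd cells, 9.53 against 13.4 in wild-type and 6.02 against 8.03 in mutant fibroblasts. Pcolce, Plod1 and Crtap were lower in Tnmd cells on that scale too.

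Within a class, cells with more Col1a1 also held more Pcolce. Across tertiles of the cells ordered by Col1a1 per UMI, Pcolce was at 672, 1810 and 2996 CPM in wild-type Scx-low fibroblasts, at 1605, 2438 and 3176 CPM in mutant Scx-low fibroblasts and at 1004, 2110 and 3103 CPM in mutant Scx-high cells. In wild-type Scx-high cells, with Col1a1 high throughout, the range was smaller, 3992 to 4789 CPM. The Spearman correlation of Pcolce with Col1a1 over cells was 0.609 in 828 wild-type fibroblasts, 0.371 in 1910 mutant fibroblasts, 0.655 in 235 mutant Scx-high cells and 0.224 in 1178 wild-type Scx-high cells, as a description over cells of 1 library each, which share a library and its depth. Crtap went from 82.2 to 220 CPM and Pcolce2 from 11.7 to 126 CPM between the lowest and highest tertile of mutant Scx-high cells. Pcolce2 had 79 UMIs over these tertiles together, so its lowest value rests on few counts. Plod2 was at 250, 374 and 233 CPM over the same tertiles and so did not follow Col1a1.

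The share of cells with at least 1 UMI was compared after thinning each cell to 1500 UMIs, which left out 89 and 19 Scx-high cells. P4ha1 was then detected in 66.7% of wild-type and 16.2% of mutant Scx-high cells (86.9% and 37.4% unthinned), Crtap in 42.2% and 20.8% (73.9% and 41.3%), and Pcolce2 in 40.4% and 6.94% (62.6% and 19.1%). Plod2 was detected in 6.24% (4.88 to 7.85) of wild-type and 29.6% (23.6 to 36.2) of mutant Scx-high cells, and in 16.0% and 48.5% unthinned. A larger share of the Scx-high cells thus held it in the mutant library. P4ha2 was found in 1.56% and 6.02% of these cells after thinning. Immune cells, with median depths of 2372 and 1638 UMIs against 4285.5 and 4251 in Scx-high cells, are given for comparison. There P4ha1 was found in 8 of 138 wild-type and 3 of 100 mutant cells after thinning, Crtap in 3 and 1, Plod1 in 11 and 12, Pcolce in 18 and 7, and Pcolce2 in 1 and 2. Plod2 was found in 0 of 138 and 1 of 100, and P4ha2 in 0 of 138 and 0 of 100. At this depth a count of 0 allows up to 2.64% of the wild-type and 3.62% of the mutant immune cells to hold a UMI. That does not limit the share that express the gene. In haemoglobin-rich cells, with median depths of 5639 and 4451 UMIs, Pcolce was found in 4 of 75 and 3 of 71 cells after thinning, Crtap in 1 of 75, and the other 8 genes in none of either library. Plod1 was at 67.0 and 80.3 CPM in immune cells, against 4.26 CPM and 0 UMIs in haemoglobin-rich cells, so the immune value of Plod1 was above that background.

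The other genes of collagen synthesis were also compared between the libraries. Of 22 such genes, 17 reached 20 CPM in Scx-high cells, where 3 were at least 2-fold lower and 1 at least 2-fold higher in the mutant library, beside the 4.5% and 13.9% of all genes (median -0.16 on the log2 scale, against 0.36). The 3 lower genes were Creb3l1, a transcription factor of the secretory pathway, at 0.358, Sparc, a collagen-binding matrix protein, at 0.324, and Adamts2, which removes the N-propeptide, at 0.417. The higher one was P4ha3, the remaining prolyl 4-hydroxylase subunit, at 68.6 and 182 CPM. P4hb, the partner of all 3 subunits, had a ratio of 1.18 (1.09 to 1.28), and the partners of Crtap, P3h1 and Ppib, had ratios of 1.19 and 1.07. P3h3, the partner of P3h4, had a ratio of 0.781, and Serpinh1, the collagen chaperone, one of 0.660. In Scx-low fibroblasts 16 of the 22 reached 20 CPM and none was past 2-fold in either direction.

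The substrates themselves diverged in Scx-high cells. Of 8 fibrillar collagen chains, 5 were at least 2-fold lower in mutant Scx-high cells (Col1a1, Col1a2, Col2a1, Col11a1 and Col11a2). The other 3 were at least 2-fold higher (Col3a1, Col5a1 and Col5a2), beside 4.5% of 5466 genes lower and 13.9% higher. Col1a2 had a ratio of 0.261 and Col11a2 one of 0.126, and Col5a1 was at 54.1 CPM in wild-type and 805 CPM in mutant cells. Col3a1 is 1 of the 5 genes that define the fibroblast class. Col3a1, Col5a1 and Col5a2 were not measured apart in Scx-high cells with and without fibroblast genes. In Scx-low fibroblasts Col2a1 and Col11a2 were at least 2-fold lower in the mutant library and the other 6 chains lay within 2-fold. Of 5940 genes, 5.51% were at least 2-fold lower in that comparison and 3.32% at least 2-fold higher.

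Over the 13 cell groups of both libraries with at least 20 cells, the genes most alike each member were listed by the Pearson correlation of log2(CPM + 10) among 6123 genes with at least 50 CPM in a group. P4ha1 was most like Cpxm2 (0.931), Col2a1 (0.927) and Col1a2 (0.925), and P4ha2 most like Mfap5 (0.978), Col3a1 (0.950) and Dpt (0.941), the latter 2 of which define the fibroblast class. P3h4 was most like P3h3 (0.979), and Crtap was like Snhg18 (0.976) and Pcolce (0.969). Plod2 was most like Wnt9a (0.945), Tnfrsf12a (0.944) and Pcsk5 (0.943), Plod1 like Herpud1 (0.971), and Bmp1 like Rab23 (0.969), with Pcolce also among its 3 nearest (0.965). These groups come from the same 2 libraries and the same depths, and the coefficients are descriptions.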

How the data were processed

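The authors prepared 10x Genomics 3′ libraries from enzymatically released limb tendon cells at P7 (1 library per genotype, cells of 2 pups each), sequenced them on an Illumina NextSeq, aligned to mm10 and kept barcodes by total UMI count. The submitters' processing notes name Cell Ranger 1.2.0, and the study's methods a later version. The deposited values are raw UMI counts per gene and cell, used without normalization. Cells held 948 to 14358 UMIs in the wild-type and 903 to 15968 in the mutant library. The libraries share 2 barcodes.

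All barcodes were used. Near the Scx limit, 42 and 27 cells had 20 to 30 and 37 and 34 cells 30 to 45 Scx UMIs per 10000. Scx counts include ScxGFP transcripts according to the study; the share was not tested. UMIs were summed per class and scaled to CPM, with exact Poisson, conditional and binomial 95% intervals; intervals per Col1a1 UMI use the log variance of 4 Poisson counts. The rule of size was 2-fold, among genes with at least 20 CPM in either class. The interval code was tested on simulated Poisson counts, the model the intervals assume, without spread between cells or libraries. Scrublet (expected rate 2%) called 1.10% and 0.309% of cells doublets, which stayed in. The genes named are the 10 members, lists of collagen chains, other genes of collagen synthesis, hypoxia-responsive, tendon and class genes, and the 3 genes most alike each member. Members and lists were chosen with earlier results of these data known. Alternatives covered the class limits, cell filters, scaling and the collagen denominator. Gene positions are from GENCODE M21 (GRCm38) and promoter sequences from RefSeq (GRCm38.p6). Python 3.11.15, NumPy 2.4.6, SciPy 1.17.1, pandas 2.3.3 and scanpy 1.11.5 were used.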

Additional observations from a re-analysis of the deposited data

Results flagged for a closer look

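P4ha2, Plod1 and Pcolce had mutant to wild-type ratios on opposite sides of 1 in the classes, with both counting intervals away from 1. P4ha2 was at 4.63 in Scx-high cells and 0.545 in Scx-low fibroblasts, Plod1 at 0.771 and 1.48, and Pcolce at 0.459 and 1.40. Between Scx-high cells and Scx-low fibroblasts, Pcolce had a ratio of 2.63 (wild-type) and 0.859 (mutant), and Bmp1 one of 1.45 and 0.646. With 1 library per genotype these differences were not tested. Of the P4ha2 UMIs in mutant Scx-high cells, 49 came from cells with at least 5 fibroblast UMIs and 1 from the rest. Between the libraries, the ratio was 1.94 (1.18 to 3.24) among Scx-high cells with at least 5 fibroblast UMIs. Among those with fewer it was 1.09, with an interval of 0.0266 to 6.74.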

How the results depend on the processing

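No paired analysis was possible because each genotype has 1 library, and no replicate could be left out. Of 78 counts of members past 2-fold under the planned settings, 72 stayed within 1.5 times the count reported, and of 18 under settings added after the data had been seen, 17 did. The count per Col1a1 UMI in Scx-low fibroblasts, 1 gene, was 2 with a Scx limit of 15 per 10000, at least 10 fibroblast UMIs, called doublets left out, cells with immune, endothelial or pericyte markers left out, Col1a2 as the denominator, or (added) fibroblasts with under 5 Scx UMIs per 10000 only, with P4ha2 joining in the last case at 0.435. The count by CPM in Scx-low fibroblasts was 2 with the marker-bearing cells left out. No called ratio changed sign. Of 788 and 336 single values, 63 and 44 moved beyond their counting interval. These counts add both directions. With Scx-high cells under 5 fibroblast UMIs only, which leaves 53 mutant cells and wide intervals, members lower in the mutant Scx-high class went from 5 to 8 and members higher from 2 to 1. Members lower in Scx-high cells than in fibroblasts of the mutant library went from 0 to 2, and members higher from 2 to 1. Counts were low for P4ha2 in wild-type Scx-high cells (49 UMIs) and for the genes other than Pcolce in other cells. The causes of these moves were not tested.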
